A study of Mus musculus with 18 samples.

Results

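Rmrp, Rpph1, Rn7sk, Terc, Vaultrc5, Rny1 and Rny3 are 7 structural noncoding RNA genes, each the RNA part of a ribonucleoprotein particle, among the 27179 genes counted in brain RNA of mice given glyphosate. They were taken by name, and Rmrp, which leads the set, was chosen by its measured slope on glyphosate dose, so the dose values of these RNAs are given as a description and without a test. The experiment asks how gene expression in the brain changes with the dose of glyphosate, a herbicide, given by mouth. Total RNA from half-brain samples of 18 wild-type C57BL/6J mice, a standard inbred strain, was sequenced after removal of ribosomal RNA, which keeps RNAs without a poly(A) tail. Daily gavage began at the age of 4 months and lasted 14 days in every mouse. Vehicle mice (5 mice, 2 males and 3 females) received the same neutralized solution with no glyphosate in it, and the others received 125 mg/kg (5 mice, 3 males and 2 females), 250 mg/kg (4 mice, 3 males and 1 female) or 500 mg/kg (4 mice, 2 males and 2 females). Mice are named by the tags of their labels.

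These RNAs act as parts of particles rather than as messages. RNase MRP, built around Rmrp, and RNase P, built around Rpph1, share most of their proteins; RNase P trims transfer RNA precursors and RNase MRP takes part in ribosomal RNA processing, and changes in the human RMRP gene cause cartilage-hair hypoplasia. Rn7sk holds the transcription elongation factor P-TEFb in an inactive complex with Hexim proteins, Terc carries the template of telomerase, Vaultrc5 belongs to the vault particle, and the Y RNAs Rny1 and Rny3 bind the proteins Ro60 and La. RNA polymerase III makes all of them except Terc, which RNA polymerase II makes.

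Transcript sequences are shown for the members the results turn on, from the GENCODE annotation of GRCm38, with T for U. Rmrp (271 bases, chr4:43492788-43493058, minus strand) and Rpph1 (319 bases, chr14:50807449-50807767, minus strand, bases 1 to 300 shown) are set together because their particles are related. Capitals mark the longest runs that both RNAs hold, of 9 bases.
Rmrp: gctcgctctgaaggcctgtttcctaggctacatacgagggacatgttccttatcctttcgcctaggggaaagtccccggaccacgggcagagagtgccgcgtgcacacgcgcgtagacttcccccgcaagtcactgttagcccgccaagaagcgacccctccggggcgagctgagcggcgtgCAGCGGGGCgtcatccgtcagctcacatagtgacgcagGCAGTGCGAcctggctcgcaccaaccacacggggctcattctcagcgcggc
Rpph1: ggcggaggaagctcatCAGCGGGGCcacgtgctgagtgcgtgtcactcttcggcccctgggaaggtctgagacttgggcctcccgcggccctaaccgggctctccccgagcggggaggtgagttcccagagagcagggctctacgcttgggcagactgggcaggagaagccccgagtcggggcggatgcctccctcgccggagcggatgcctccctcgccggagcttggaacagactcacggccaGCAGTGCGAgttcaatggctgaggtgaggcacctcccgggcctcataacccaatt

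The first 100 bases of Rn7sk (331 bases, chr9:78175303-78175633, minus strand) hold all 3 of its GATC runs, in capitals, at positions 13, 42 and 64 from the start of the transcript; in human 7SK such motifs near the start bind HEXIM proteins. The first 100 bases of Terc (423 bases, chr3:96414437-96414859, minus strand) hold the run complementary to the telomere repeat, in capitals, at position 28.
Rn7sk: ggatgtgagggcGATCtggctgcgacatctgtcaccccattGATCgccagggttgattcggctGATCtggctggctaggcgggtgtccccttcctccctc
Terc: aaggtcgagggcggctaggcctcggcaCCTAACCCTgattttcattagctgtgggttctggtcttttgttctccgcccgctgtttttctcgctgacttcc

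Rny1 (112 bases, chr6:47788069-47788180, minus strand) and Rny3 (102 bases, chr6:47781624-47781725, plus strand) are shown whole because their levels moved together across mice. Capitals mark their longest common run, 12 bases that begin at position 46 of Rny1 and position 45 of Rny3, and both transcripts end in a run of T.
Rny1: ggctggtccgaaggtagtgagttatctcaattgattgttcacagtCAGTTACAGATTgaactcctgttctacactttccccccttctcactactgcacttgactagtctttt
Rny3: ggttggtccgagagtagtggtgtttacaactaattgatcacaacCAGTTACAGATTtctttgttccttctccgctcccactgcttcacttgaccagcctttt

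Near copies of these genes could share reads with them, and the handling of such reads is not given in the sources used here. No other annotated transcript matched any of the 6 printed RNAs at 95% identity over 90% of its length. At 80% identity over 80% of the length, 13 other transcripts matched Rny1, 3 matched Rpph1, 2 matched Terc and 1 matched Rn7sk, and none matched Rmrp or Rny3. Matches of any length and identity that blastn reported lay in 240 other genes for Rn7sk, 24 for Rpph1, 19 for Rny1 and 1 each for Rmrp, Terc and Rny3. Vaultrc5 was not searched.

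Total counts per mouse ran from 3948096 to 11732885, and in 18 of 18 libraries the sex-linked genes fitted the sex on the label. The libraries of G4, a 500 mg/kg female, and G9, a vehicle female, stood apart, with median correlations of 0.943 and 0.942 with the other libraries, against 0.959 to 0.975 for the rest. Brain cell markers were present in every library (11 of 11 genes), but markers of glutamatergic neurons, all 8 detected in every mouse, summed to 711.8 CPM (read counts scaled to library size, after TMM normalization) in G4 and 680 CPM in G9. Over the groups this sum had a median of 3727 CPM in vehicle mice (680 to 4386). At 125 mg/kg it was 4521 CPM (2550 to 5096), at 250 mg/kg 3365 CPM (1760 to 4003) and at 500 mg/kg 2084 CPM (711.8 to 2718). The sum of 8 oligodendrocyte markers had a median of 5274 CPM in vehicle mice (3947 to 6982). At 125 mg/kg it was 6447 CPM (3870 to 9371), at 250 mg/kg 5402 CPM (4430 to 6931) and at 500 mg/kg 9094 CPM (5741 to 15990). Choroid plexus markers summed to 25.44 to 274.7 CPM at 500 mg/kg and 11.68 to 1204 CPM in vehicle mice, and blood cell markers stayed at 11.7 CPM or less in all mice. No marker gene of these lists was called on dose (edgeR). All 8 oligodendrocyte markers and 2 of 8 glutamatergic markers had an unadjusted p under 0.05, beside 2091 of all 15863 tested genes. The part of these markers in the values below was not tested. In RNA of whole tissue fewer cells of a type and less RNA per cell cannot be told apart.

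The 7 RNAs together took 2.82% to 7.7% of all counts in a library (median 3.71%), most of it from Rn7sk, which alone took 2% to 5.72%, while the other 6 together took 0.679% to 1.98%. Per kilobase of transcript, the mean level over 18 mice was 89850 CPM for Rn7sk, 30300 for Rpph1, 2671 for Rmrp, 744 for Rny1, 524 for Rny3, 4.76 for Terc and 4.04 for Vaultrc5. Rny1 and Rny3 are neighbours in this order whose ranges over mice overlapped, as are Terc and Vaultrc5. The last pair rests on few reads, 2 to 35 counts per mouse for Terc and 1 to 31 for Vaultrc5, so their values carry wide counting error. All 7 passed the filter on low counts and were among the 15863 genes tested.

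Rmrp, the RNA of RNase MRP, was lowest in the 500 mg/kg mice. It measured 564.7 (G1), 807.8 (G5), 1133 (G9), 965.9 (G15) and 840.0 CPM (G18) in vehicle mice, and 927.7, 727.7, 782.3, 902.2 and 1056 CPM in G25, G29, G34, G40 and G45 at 125 mg/kg. It measured 662.2, 681.2, 511.6 and 671.1 CPM in G49, G64, G66 and G71 at 250 mg/kg, and 549.7, 504.0, 454.6 and 479.6 CPM in G4, G79, G87 and G90 at 500 mg/kg. Every 500 mg/kg mouse lay below every vehicle mouse and below every 125 mg/kg mouse, and the 500 mg/kg and 250 mg/kg groups overlapped through G66.

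The group means of Rmrp were 862.3 ± 209.8 CPM in the 5 vehicle mice, 879.2 ± 128.9 CPM in the 5 mice of the 125 mg/kg group, 631.5 ± 80.32 CPM in the 4 of the 250 mg/kg group and 497.0 ± 40.53 CPM in the 4 of the 500 mg/kg group (± SD). The slope of the regression on dose and sex (edgeR) was -0.87 on the log2 scale per 500 mg/kg (SE 0.17), and this slope is what singled Rmrp out. It was among the 46 genes called on dose, 0.290% of those tested, and the 7 that fell, 0.0441%. Of all tested genes, 0.933% had every 500 mg/kg mouse below every vehicle mouse, 3.06% every 500 mg/kg mouse below every 125 mg/kg mouse and 3.18% every 250 mg/kg mouse below every 125 mg/kg mouse. Rmrp alone of the 7 met the vehicle and 500 against 125 mg/kg criteria, and Rmrp and Rn7sk met the last. Without G4 and G9 the slope was -0.85 and it was not called. The call held in 8 of the 18 fits that leave out one mouse, with slopes of -0.97 to -0.81 in all of them.

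**Figure D1:**
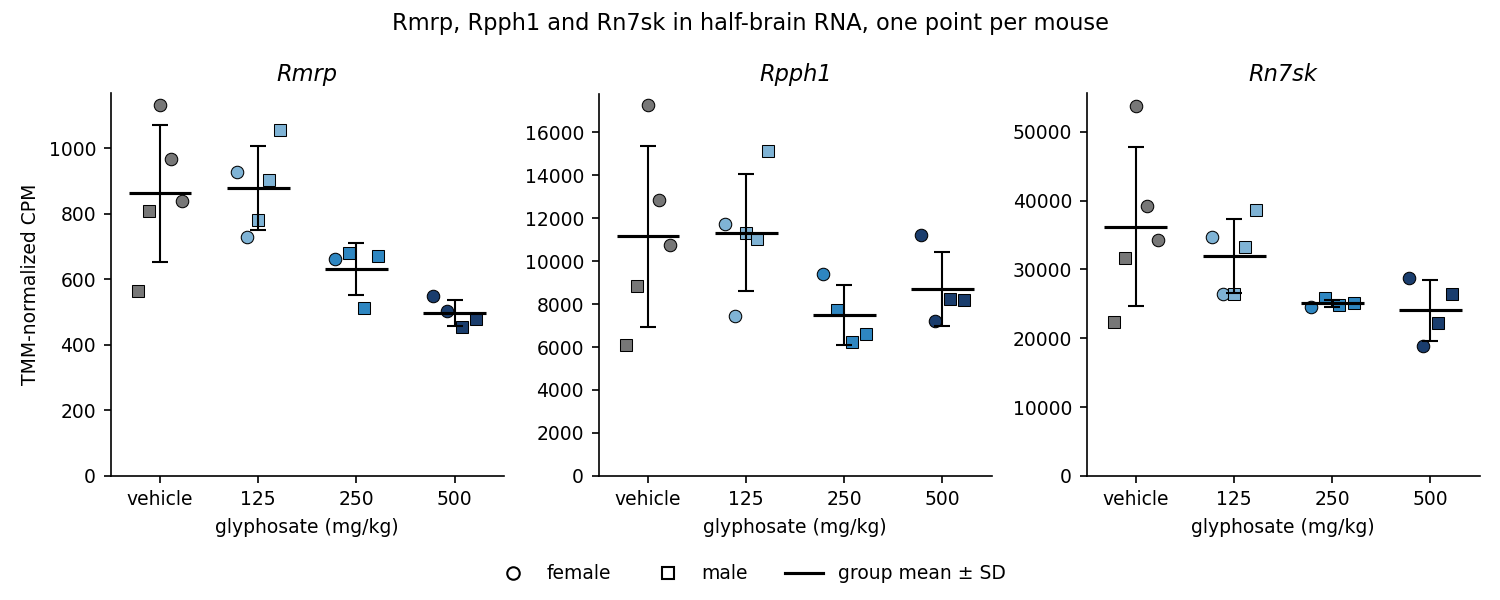
TMM-normalized CPM of Rmrp, Rpph1 and Rn7sk (one panel each, y axes from 0) by glyphosate dose in mg/kg, one point per mouse (circles female, squares male), with group mean ± SD. The 4 Rmrp values at 500 mg/kg, 454.6 to 549.7 CPM, lie below the 5 vehicle values, while the Rpph1 and Rn7sk values of these groups overlap.

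Rpph1, the catalytic RNA of RNase P, did not separate the groups. It measured 6092, 8855, 17250, 12830 and 10740 CPM in vehicle mice G1, G5, G9, G15 and G18, and 11710, 7425, 11330, 11020 and 15130 CPM in the 125 mg/kg mice in the order above. The 250 mg/kg mice had 9403, 7713, 6247 and 6628 CPM, and the 500 mg/kg mice had 11200 (G4), 7227, 8219 and 8203 CPM. G9 and G45 were the high mice and G1 and G66 the low ones, and all 4 groups overlapped. The dose slope was -0.41 (SE 0.25).

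Rn7sk, the regulator of P-TEFb, was lower in both upper dose groups but overlapped with vehicle mice. Vehicle mice had 22280 (G1), 31620, 53800 (G9), 39160 and 34240 CPM, and the 125 mg/kg mice 34760, 26450, 26450, 33320 and 38620 CPM. The 250 mg/kg mice lay within a narrow band, at 24530, 25800, 24760 and 25090 CPM, and the 500 mg/kg mice had 28690 (G4), 18810, 22260 and 26360 CPM. All 250 mg/kg mice were below all 125 mg/kg mice, and vehicle mouse G1 was below all 4 of them. The dose slope was -0.59 (SE 0.19), the steepest of the members after Rmrp and Rny1, and it was not called.

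Among the 5 members with ample counts, the Y RNAs varied most from mouse to mouse, by 6.11 times between the highest and the lowest mouse for Rny1 and 9.17 times for Rny3. The span was wider for Terc (12 times) and Vaultrc5 (21.7 times), which rest on few counts. Rny1 measured 29.27 (G1), 61.86, 149.3 (G9), 129.7 and 91.03 CPM in vehicle mice and 66.2, 65.96, 72.47, 119.2 and 178.9 CPM (G45) at 125 mg/kg. It measured 132.9 (G49), 59.92, 34.18 (G66) and 44.3 CPM at 250 mg/kg and 71.06, 49.78, 55.58 and 75.55 CPM at 500 mg/kg. The 500 mg/kg mice sat inside the range of the vehicle mice.

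Rny3 had 13.71 (G1), 40.29, 87.1 (G9), 71.27 and 56.22 CPM in vehicle mice and 47.32, 53.42, 39.04, 70.18 and 125.7 CPM (G45) at 125 mg/kg. It had 93.97 (G49), 39.55, 18.07 (G66) and 27.71 CPM at 250 mg/kg and 59.11, 30.17, 36 and 44.46 CPM at 500 mg/kg. The same mice were high and low as for Rny1, and all groups overlapped. The dose slopes were -0.61 (SE 0.42) for Rny1 and -0.45 (SE 0.46) for Rny3.

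Terc, the telomerase RNA, was the only member with a positive dose slope, 0.50 (SE 0.58). Vehicle mice had 0.4621 (3 counts), 0.9468, 3.103, 2.645 and 2.568 CPM, and the 125 mg/kg mice 3.569, 0.5574, 0.3214 (2 counts), 1.17 and 3.777 CPM. The 250 mg/kg mice had 1.973, 0.7234, 0.3689 (3 counts) and 1.688 CPM, and the 500 mg/kg mice 3.855 (G4), 1.341, 2.234 and 2.676 CPM. The groups overlapped throughout, and without the 500 mg/kg group the slope was -0.51, which turns its sign.

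Vaultrc5, the vault RNA, had 0.154 (1 count), 0.4208 (4 counts), 3.325 (G9), 1.322 and 1.427 CPM in vehicle mice and 1.036, 1.022, 1.446, 1.608 and 3.346 CPM (G45) at 125 mg/kg. It had 2.96 (G49), 1.447, 0.2459 (2 counts) and 1.125 CPM at 250 mg/kg and 1.414, 1.341, 0.7884 and 0.637 CPM at 500 mg/kg. Every treated group lay inside or across the range of the vehicle mice. The dose slope was -0.41 (SE 0.64), and without the 500 mg/kg group it was 0.73, the opposite sign.

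**Figure D2:**
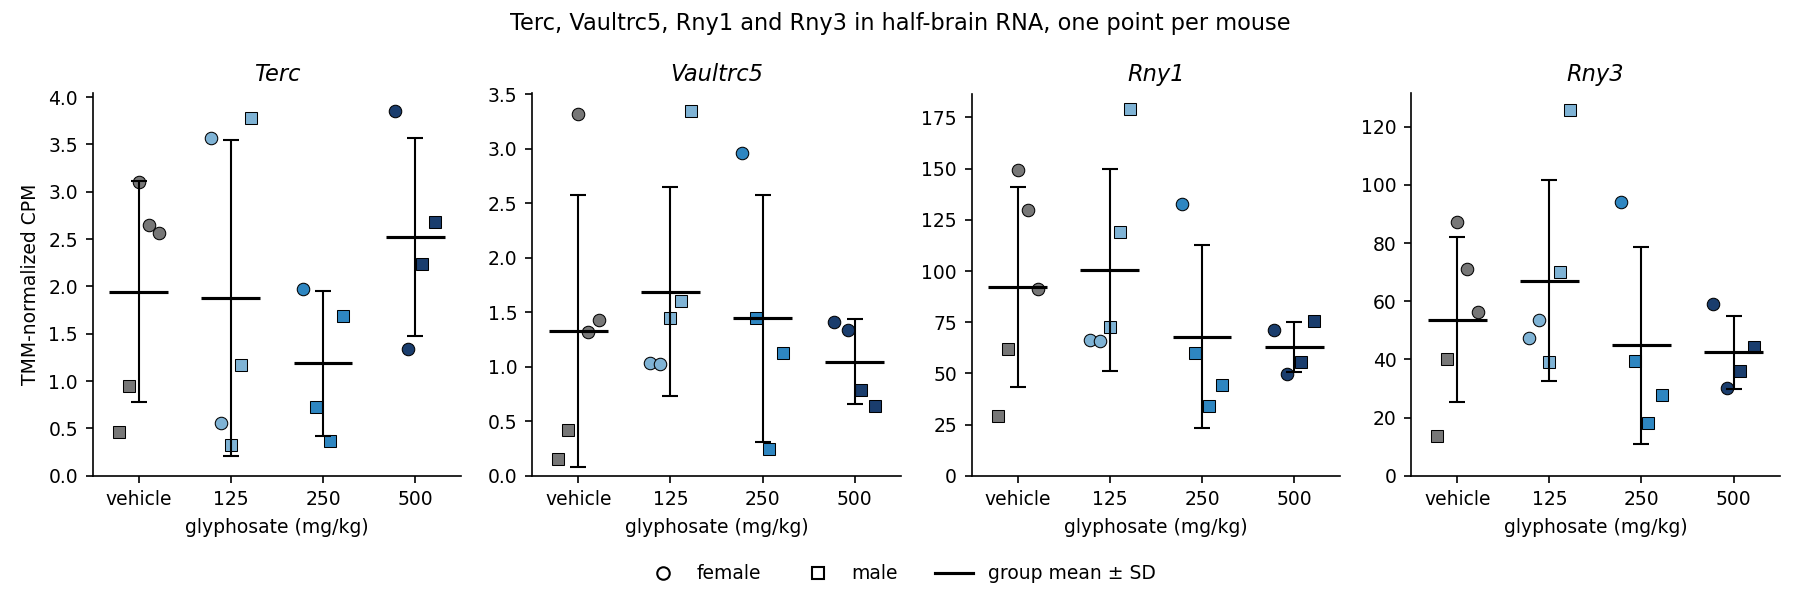
TMM-normalized CPM of Terc, Vaultrc5, Rny1 and Rny3 (one panel each, y axes from 0) by glyphosate dose in mg/kg, one point per mouse (circles female, squares male), with group mean ± SD. The vehicle and 500 mg/kg points overlap in each panel, and in the Rny1 and Rny3 panels G45 at 125 mg/kg is the highest mouse, at 178.9 and 125.7 CPM.

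Set side by side, 6 of the 7 members had a negative dose slope, with a median of -0.45, against a median of 0.01 over all 15863 genes, of which 48.8% were negative. The members are not independent of each other, as the values by mouse below show. Each dose was also set against the same vehicle mice. At 125 mg/kg no gene was called (0%), and the members' log2 changes ran from -0.14 (Rn7sk) to 0.76 (Vaultrc5). At 250 mg/kg no gene was called either (0%), and Rmrp, Rpph1 and Rn7sk were at -0.38 (SE 0.17), -0.46 (SE 0.25) and -0.47 (SE 0.21).

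At 500 mg/kg against vehicle, 0.0189% of genes were called, and the members' log2 changes included -0.77 (SE 0.16) for Rmrp, -0.56 (SE 0.21) for Rn7sk, -0.30 (SE 0.24) for Rpph1 and 0.58 (SE 0.62) for Terc. These changes rest on the mice whose values chose Rmrp and are given without a test. A departure from a straight dose line, a question separate from the slope, was called for 0.00630% of genes and 0 members, with 0 members at an unadjusted p under 0.05 (2 without G29). Over all 15863 genes, 1862 had an unadjusted p under 0.05 (edgeR). The lowest adjusted p of a member was 0.566, for Rmrp (edgeR quasi-likelihood test), and neither DESeq2 nor limma-voom called a member.

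For all members except Rmrp, most of the variation ran between mice of the same group. Of the sum of squares of log2(CPM + 1) over 18 mice, 58.6% lay within groups for Rn7sk, 70.4% for Rpph1 and 85.3% to 93.1% for the other 4, against 31.6% for Rmrp, which was chosen by its slope over these groups. In vehicle mice, G9 was above G1 by 2.01 times for Rmrp, 2.41 times for Rn7sk, 2.83 times for Rpph1, 5.1 times for Rny1 and 6.35 times for Rny3. All 7 members were above their mean over 18 mice in G9, G15, G18 and G45, and all 7 were below it in G1 and G66. Averaged over the 7 RNAs, the difference from that mean on the log2(CPM + 1) scale was 0.85 in G9 and 0.88 in G45, and -0.87 in G1 and -0.78 in G66. High and low mice thus occurred among the vehicle mice as well as the treated ones.

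**Figure D3:**
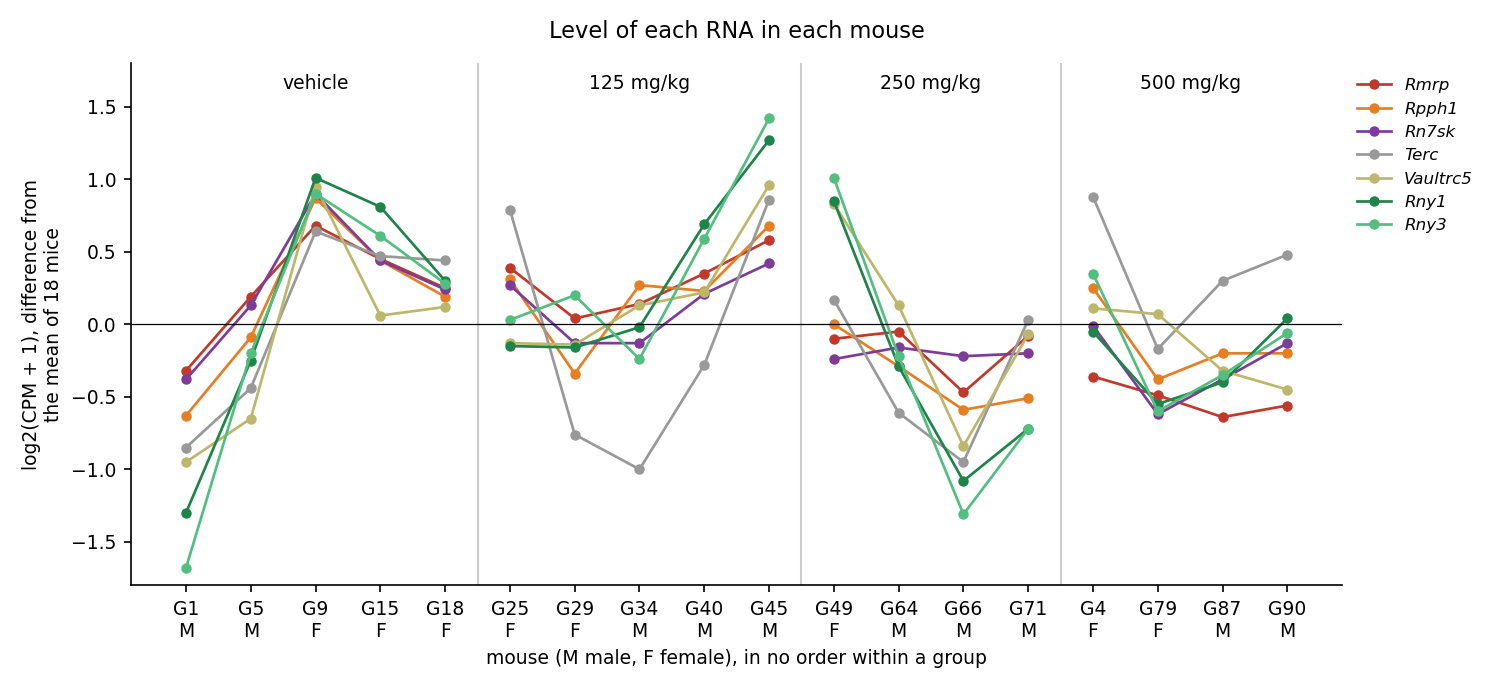
Difference of log2(CPM + 1) from the mean of 18 mice (y axis) for each of the 7 RNAs (coloured lines) in each mouse (x axis), by dose group; lines join mice of a group in no meaningful order. The lines move together within groups, high in G9 and G45 and low in G1 and G66, while at 500 mg/kg the red Rmrp line lies at -0.36 to -0.64 and Terc is mostly above its mean.

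The spread within groups differed between members. The SD of log2(CPM + 1) within groups was 0.252 for Rmrp, 0.307 for Rn7sk, 0.4 for Rpph1, 0.727 for Rny1 and 0.811 for Rny3, against a median of 0.224 over 7587 tested genes with a mean of at least 20 CPM. Of these genes, 40.2% had a larger spread than Rmrp, 26.6% than Rn7sk and 14.6% than Rpph1, but 3.11% than Rny1 and 2.37% than Rny3. The Y RNAs were therefore among the most variable well-measured genes in these libraries. The part of RNA recovery in this spread was not tested. Terc and Vaultrc5 had SDs of 0.661 and 0.578 at far lower counts.

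Over 18 mice the level of Rmrp followed that of Rn7sk with Pearson's r = 0.86 and Spearman's rho = 0.89, with permutation p = 1e-05 and 2e-05 (adjusted p = 6.3e-05 and 0.00019 over 19 relations), and the value for r is the smallest 100000 permutations can give. It followed Rpph1 with r = 0.77 and rho = 0.73 (permutation p = 0.00024 and 0.00079, adjusted 0.0011 and 0.0038). Without the 2 mice farthest from the median of Rmrp, G87 and G9, r was 0.84 for Rn7sk and 0.74 for Rpph1, and without G4 and G9 it was 0.88 and 0.79. The relations with Rny1 (r = 0.69, rho = 0.63, permutation adjusted p = 0.0056 and 0.018) and Rny3 (r = 0.64, rho = 0.63, permutation adjusted p = 0.012 and 0.018) were looser. All-mouse values with Rmrp, here and below, contain the group differences that chose it, and the permutations ran across dose groups. Their p-values are thus a description.

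For Vaultrc5 the values were r = 0.58 and rho = 0.53, with permutation adjusted p = 0.026 and 0.053, so that only the first passed 0.05. Terc did not follow Rmrp over all mice (r = 0.28, rho = 0.26, permutation adjusted p = 0.38 and 0.47). With the 4 group means removed, r with Rn7sk was again 0.86, and r with the others was higher than over all mice, at 0.89 for Rpph1, 0.83 for Vaultrc5, 0.82 for Rny3, 0.81 for Rny1 and 0.78 for Terc. The tightest pair was the 2 Y RNAs, with r = 0.97 and rho = 0.94 over 18 mice (permutation p = 1e-05 each, the smallest possible; adjusted 6.3e-05 and 0.00019) and r = 0.97 with group means removed. Their genes lie close together on chromosome 6, with the pseudogene Rpl31-ps7 between them.

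Other measures of the libraries were set against Rmrp in the same way. The total count gave r = 0.31 and rho = 0.41 (permutation adjusted p = 0.37 and 0.16). Glutamatergic neuron markers gave r = 0.00 and rho = 0.24 (adjusted p = 1.0 and 0.48) over all mice, 0.34 without G4 and G9, and -0.58 with group means removed. Oligodendrocyte markers gave r = -0.23 and rho = -0.16 (permutation adjusted p = 0.46 and 0.57), and 0.29 with group means removed. No relation with depth or with these markers passed the threshold over all mice, and their part in the levels of the members is otherwise not tested. With group means removed, glutamatergic neuron markers gave r = -0.59 with Rn7sk and -0.49 with Rny1. No p was computed for values with group means removed.

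A ratio within a library does not depend on the scaling between libraries. Rmrp made 8.06 ± 1.13 counts per 100 Rpph1 counts in the 5 vehicle mice, 7.96 ± 1.17 in the 5 mice given 125 mg/kg, 8.54 ± 1.28 in the 4 given 250 mg/kg and 5.82 ± 0.863 in the 4 given 500 mg/kg (± SD). The values were 4.91 (G4), 6.97, 5.53 and 5.85 in the 500 mg/kg mice, against 9.27, 9.12, 6.57 (G9), 7.53 and 7.82 in vehicle mice. G79 at 500 mg/kg was above G9, so these groups overlapped by that pair of mice alone.

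Per 100 Rn7sk counts, Rmrp made 2.12 ± 0.387 counts at 500 mg/kg (n = 4), against 2.42 ± 0.179 in vehicle mice (SD, n = 5), with 1.82 to 2.68 and 2.11 to 2.55 as ranges, which overlap. The same ratio was 2.76 ± 0.113 at 125 mg/kg and 2.52 ± 0.301 at 250 mg/kg. Rpph1 per 100 Rn7sk counts was 36.4 ± 3.63 at 500 mg/kg and 30.3 ± 2.5 in vehicle mice. Rny1 per 100 Rny3 counts stayed between 120 and 213 in all 18 mice, with means of 152 at 500 mg/kg and 176 in vehicle mice. The ratios with Rmrp contain the values that singled it out, and all these ratios are given without a test.

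**Figure D4:**
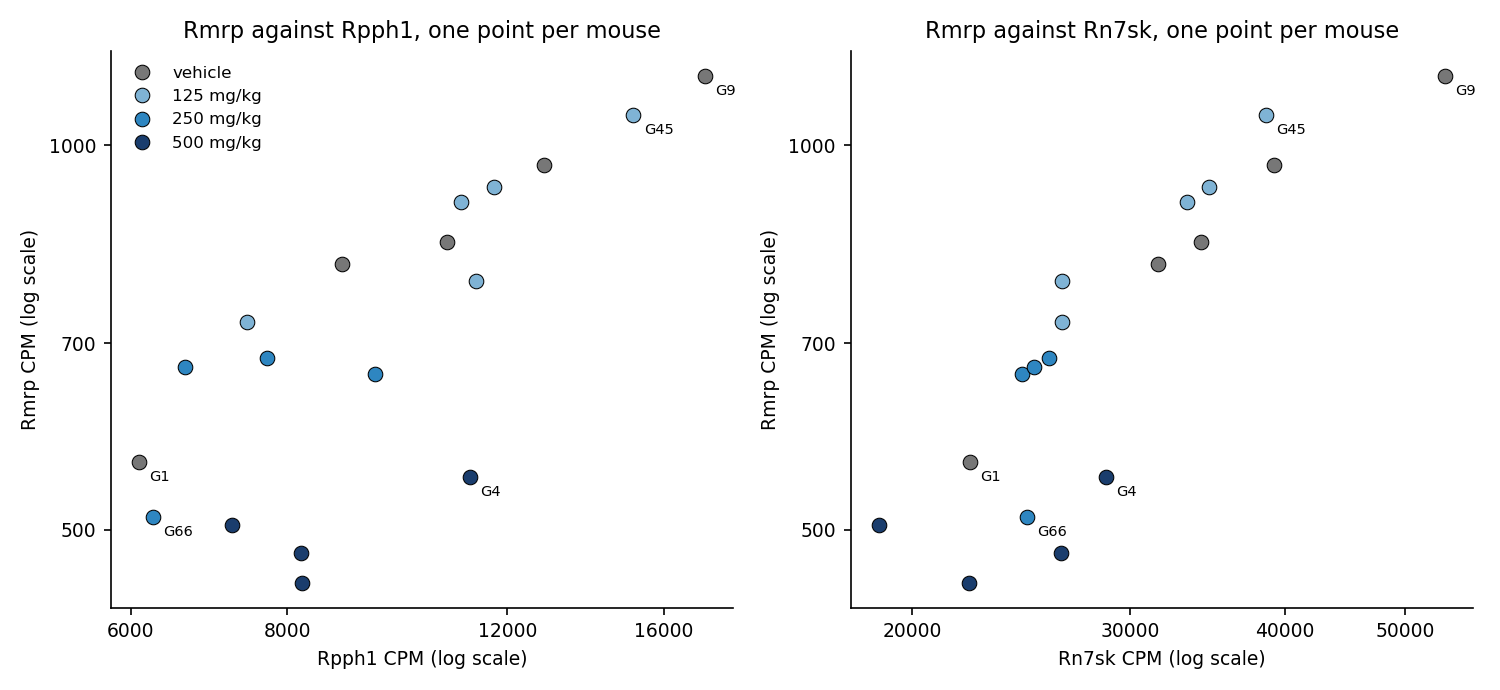
Rmrp CPM (y axis, log scale) against Rpph1 CPM (left, x axis, log scale) and Rn7sk CPM (right, x axis, log scale), one point per mouse, coloured by dose. The points rise together (r = 0.77 and 0.86 over 18 mice), and in the left panel the 4 mice at 500 mg/kg lie below the other mice of like Rpph1 level.

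Sex was a comparison that the choice of these RNAs did not use. The male over female log2 difference, with dose in the model, was -0.17 (SE 0.12) for Rmrp, -0.26 (SE 0.18) for Rpph1 and -0.14 (SE 0.15) for Rn7sk. It was -0.73 (SE 0.47) for Terc, -0.85 (SE 0.49) for Vaultrc5, -0.45 (SE 0.32) for Rny1 and -0.62 (SE 0.34) for Rny3. All 7 were below 0, against 49.2% of all genes, but 0 members were called, with 0.0441% of genes called, and the lowest adjusted p was 0.643 for Rny3 (edgeR). At an unadjusted p under 0.05 there were 0 members with edgeR, 0 with limma-voom and 2 with DESeq2, and neither of the last tools called one. Of the 15863 genes tested, 1268 had an unadjusted p under 0.05 on sex (edgeR). With single mice left out edgeR had 0 to 4 such members, with 4 without G29, 3 without G45, 2 without G25 and 1 without G79, and called none. Since the members rise and fall together by mouse, 7 negative values are not 7 separate observations.

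The sex gap was visible in vehicle mice and not at 125 mg/kg. Cages were formed by sex and dose, so sex differences here cannot be told apart from differences between cages. In the vehicle group both males were below all 3 females for each of the 7 RNAs, for example 29.27 and 61.86 CPM of Rny1 in males, against 149.3, 129.7 and 91.03 CPM in females. At 125 mg/kg the 3 males had 72.47, 119.2 and 178.9 CPM of Rny1, against 66.2 and 65.96 CPM in the 2 females, so the order was turned round. The test for a difference in dose slope between the sexes called no gene (0%) and no member. Its member values ran from -0.18 (SE 1.32) for Vaultrc5 to 1.18 (SE 1.16) for Terc, with Rmrp at 0.08 (SE 0.35), 0 members at an unadjusted p under 0.05 (1 without G4) and 0 called by DESeq2 or limma-voom. Over all 15863 genes, 262 had an unadjusted p under 0.05 in this test (edgeR).

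No gene that encodes a protein partner of these RNAs passed the dose test. Of 60 tested genes in 5 lists 0 were called by edgeR, 3 had an unadjusted p under 0.05, DESeq2 called 1, and the median slope was 0, against 0.01 for all genes. An unadjusted p under 0.05 was found for 2091 of all 15863 genes (edgeR). How many genes DESeq2 called in all is not given here. The 11 RNase P and RNase MRP proteins had slopes from -0.42 (Rpp40, adjusted p = 0.552) to 0.32 (Rpp30), with Pop4 at 0.24 (SE 0.20, adjusted p = 0.657); none passed (edgeR), and 0 had an unadjusted p under 0.05. The 7 proteins of the 7SK particle and P-TEFb ran from -0.14 (Mepce, the 7SK capping enzyme, adjusted p = 0.596) to 0.32 (Hexim2, an inhibitor of P-TEFb, adjusted p = 0.573).

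Among 7 telomerase proteins, the slopes with the smallest p were -0.30 (SE 0.15, adjusted p = 0.41) for Dkc1, dyskerin, and -0.25 (SE 0.23, adjusted p = 0.689) for Nhp2, both of which bind the telomerase RNA (edgeR). Of 5 vault and Ro particle proteins, Tep1, a protein of vault and telomerase particles, had a slope of 0.54 (SE 0.18, adjusted p = 0.209) and Mvp, the major vault protein, 0.62 (SE 0.27, adjusted p = 0.338). Ro60 itself, the Y RNA binding protein, was at -0.08 (SE 0.13). None of these passed.

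Of 30 genes of the RNA polymerase III machinery, which makes 6 of the 7 RNAs, the median slope was -0.01 and the largest was that of Polr3e, a polymerase subunit, at 1.26 (SE 0.28, adjusted p = 0.0583, edgeR). Polr3e had 204 (G4), 90.3, 70.2 and 68.2 CPM at 500 mg/kg, against 45.8, 33.8, 44.1, 50.6 and 60.4 CPM in vehicle mice. All 500 mg/kg mice were above all vehicle mice, and G4 was far above the others. The share of all genes with this rising order is not given here. Under DESeq2 1 of the 60 genes was called, and leaving out G45, G79 or G90 in edgeR also gave 1. Polr3c, the next by p, was at 0.29 (SE 0.20, adjusted p = 0.555).

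**Figure D5:**
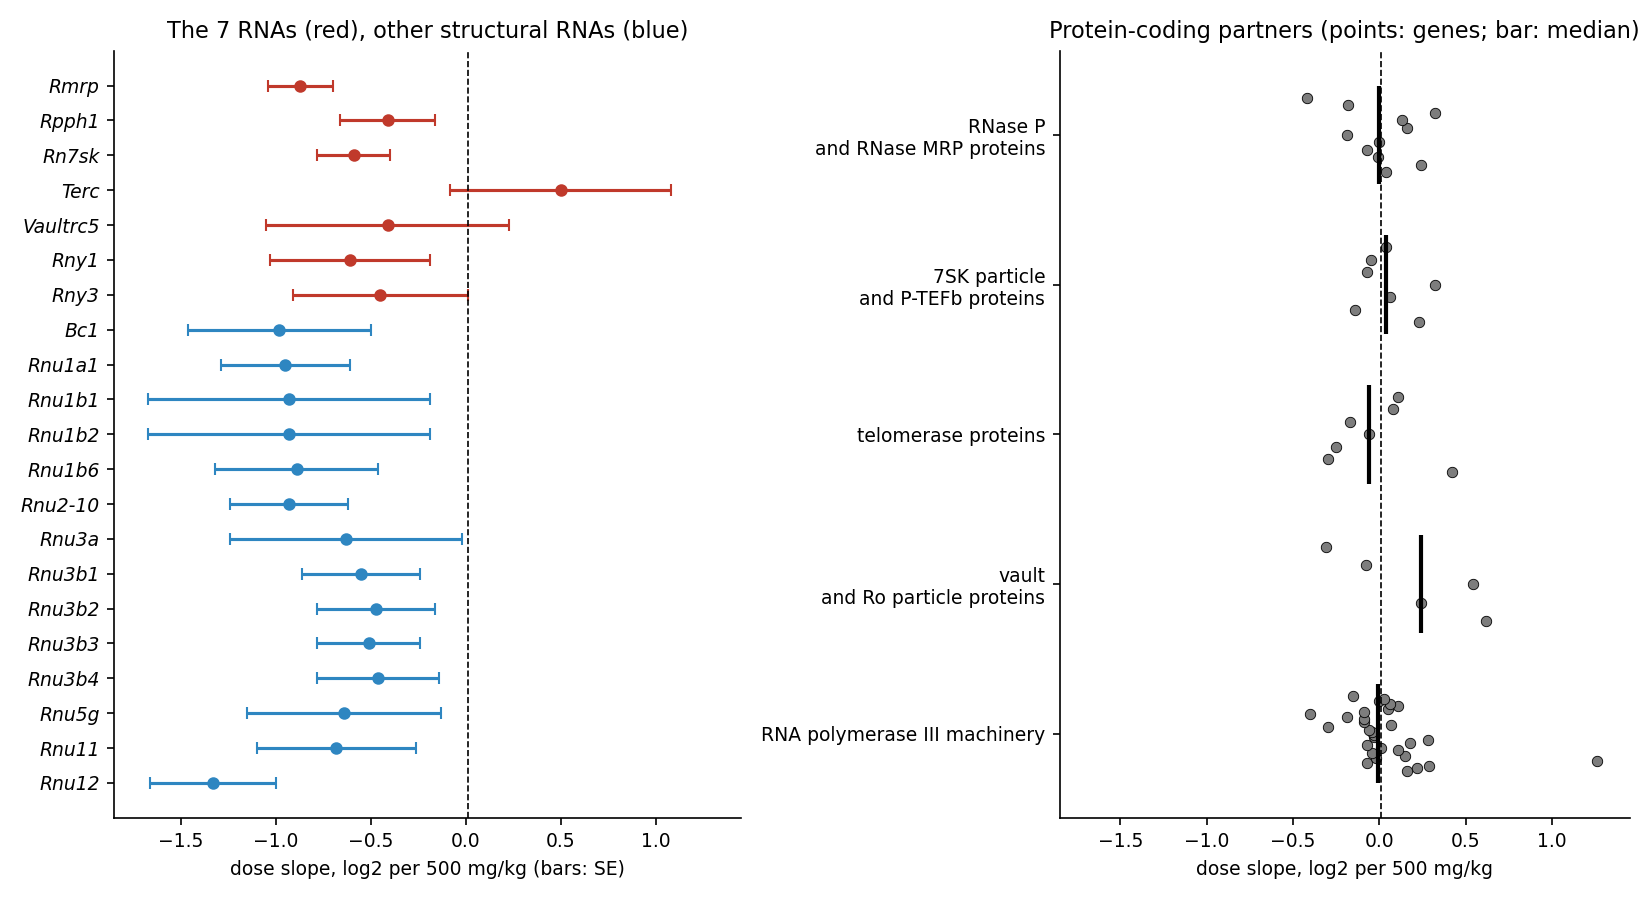
Dose slope in log2 per 500 mg/kg (x axes) of the 7 members (red) and 14 other structural RNAs (blue) with SE bars, and of 60 genes in 5 lists of protein partners (grey points, list median as a bar); the dashed line is the median of all genes, 0.01. The blue points all lie below 0, with a median of -0.78, while the protein lists centre near 0 except for Polr3e at 1.26.

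Other structural noncoding RNAs leaned the same way as the members. Of 24 listed, 18 were in the table and 14 passed the filter. All 14 had negative slopes, with a median of -0.78, against 0.01 for all genes. Of these, 0 were called by edgeR, 3 had an unadjusted p under 0.05 and DESeq2 called 1. Among all 15863 tested genes, 2091 had an unadjusted p under 0.05 on dose (edgeR). Rnu1b1 and Rnu1b2 held identical counts in all 18 mice, so they are 1 measurement, and U1 and U3 copies may share reads. Most of the 14 tested RNAs, the tested spliceosomal U RNAs among them, are made by RNA polymerase II.

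Rnu12, the U12 RNA of the minor spliceosome, had the steepest slope at -1.33 (SE 0.33, adjusted p = 0.0921, edgeR). It had 4.11 (G4), 1.17, 2.63 and 2.8 CPM at 500 mg/kg, against 3.54 (G1), 5.05, 12.3 (G9), 10.4 and 7.28 CPM in vehicle mice, and G4 overlapped with G1. Rnu2-10, a U2 RNA, had 123, 150, 94.7 and 134 CPM at 500 mg/kg, against 88.7 (G1), 185, 381 (G9), 370 and 234 CPM in vehicle mice, with a slope of -0.93 (SE 0.31, adjusted p = 0.209). Among the vehicle mice, G9 was the highest and G1 the lowest for Rnu12 and Rnu2-10, as for the members.

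Among 24 tested small nucleolar RNAs, of 123 in the table, 21 had negative slopes with a median of -0.46, and 1 fell. This was Snora74a, at -1.22 (SE 0.24, adjusted p = 0.0361, edgeR), with 12.2, 5.87, 7.62 and 10.2 CPM at 500 mg/kg, against 13.4, 20.5, 27.3, 22.3 and 21.4 CPM in vehicle mice, and these groups did not overlap. The next by p, Snord17, was at -0.89 (SE 0.29, adjusted p = 0.207). Replication-dependent histone genes, whose messages also lack a poly(A) tail, had negative slopes in 59 of 59 tested, with a median of -0.59. Of these, 32 had an unadjusted p under 0.05, beside 2091 of all 15863 tested genes, and 0 were called (edgeR). H2bc15 (-1.43) and H2ac22 (-1.46) had the smallest p (edgeR, adjusted p = 0.058 for both). Some copies had nearly the same values, such as H2ac23 and H2ac24 (means of 12.59 and 12.55 CPM), and may share reads. The 59 are thus not all separate measurements.

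The mean level of the histone genes also followed Rmrp over all mice, with r = 0.67 and rho = 0.68 (permutation adjusted p = 0.0091 and 0.0094), but with group means removed r was 0.13. Rmrp and all tested histone genes had negative dose slopes, and the permutations ran across dose groups. The all-mouse p-values thus contain the dose differences that chose Rmrp and are a description. For the small nucleolar RNAs the values were r = 0.59 and rho = 0.53 (permutation adjusted p = 0.024 and 0.053), 0.39 without G87 and G9, and 0.75 with group means removed. That measure was the mean log2(CPM + 1) of all 123 in the table, of which only 24 passed the filter. It ran from 0.63 to 0.89 over the mice. Removing the group means left little of the histone relation and more of the small nucleolar one, and the difference between the 2 correlations was not tested.

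The genes whose level over 18 mice was most like that of Rmrp, of 15563 genes with a mean of at least 1 CPM, included small RNAs and others. They were the unnamed gene 100504654 (r = 0.883), Snora74a (0.87), Rps16, a ribosomal protein gene (0.851), Scarna6, a small Cajal body RNA (0.841), Id3, an inhibitor of DNA binding (0.837), the pseudogene Gm6252 (0.828), Rnu12 (0.824) and the unnamed gene 675440 (0.824). With group means removed the same correlations were 0.772, 0.744, 0.742, 0.892, 0.715, 0.786, 0.791 and 0.612. Placed in the same order, Rn7sk would be number 3, Rpph1 42, Rny1 139, Rny3 232, Vaultrc5 444 and Terc 3007. These are descriptions over 18 libraries that share their scaling.

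No tested gene that lies next to a member passed the dose test. Ccdc107 lies 280 bases from Rmrp in the RefSeq annotation and overlaps it on the opposite strand in GENCODE, and whether the counting used strand is not given in the sources used here. It had a dose slope of -0.13 (SE 0.17, adjusted p = 0.803, edgeR), with 7.45, 10.6, 7.88 and 6.5 CPM at 500 mg/kg, against 8.32, 8.73, 10.6, 11 and 6.85 CPM in vehicle mice, which overlapped. Parp2, which encodes a poly(ADP-ribose) polymerase and lies 125 bases from Rpph1, had a slope of -0.47 (SE 0.22, adjusted p = 0.377). C920006O11Rik and Cilk1 on the 2 sides of Rn7sk were at 0.05 (SE 0.24) and 0.11 (SE 0.18), Zmat2 beside Vaultrc5 at -0.24 (SE 0.10, adjusted p = 0.31) and Pdia4 beside Rny1 at 0.03 (SE 0.14). Sit1, on the other side of Rmrp, and Ccnb1ip1, on the other side of Rpph1, were too low to test. The remaining neighbours were not in the count table. These were n-THgtg6 and Gm24136 beside Terc, Gm52862 and Rpl31-ps7 beside Rny3, Rpl31-ps7 beside Rny1 and Gm6756 beside Vaultrc5. Terc and Rny3 thus had no tested neighbour.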

How the data were processed

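RNA of half-brain samples was isolated by the authors with the RNeasy Kit, depleted of ribosomal RNA and sequenced as stranded libraries. Column kits of this kind are known to keep very short RNAs less well than long ones, which bears on the Y RNAs. STAR 2.7.5b (build GRCm38) and featureCounts were used by the authors, and the deposited values are raw counts per gene by Entrez number, for one library per mouse. How reads with several matches and strand were handled is not given in the sources used here. Tests used edgeR 4.0.16 (quasi-likelihood) in R 4.3.3, after TMM normalization and filterByExpr with a minimum count of 10, on dose divided by 500 and sex, with Benjamini-Hochberg adjustment over all 15863 genes tested and a threshold of 0.05. DESeq2 1.42.0 and limma-voom 3.58.1 were alternatives, and the tests were checked on simulated data. Levels are TMM-normalized CPM. Correlations used log2(CPM + 1) and 100000 permutations (scipy 1.17.1). Copies were sought with blastn 2.17.0+ in GENCODE transcripts, and neighbours in the RefSeq annotation, in which 25275 of the 27179 genes were found.

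The members and the 13 gene lists were chosen with earlier results of these data known. Text names every member, the nearest gene on each side, and the 8 tested genes most correlated with Rmrp. Of the lists it names genes past the threshold on dose or otherwise the 2 with the smallest p. Genes of the cell marker lists are not named. Rpp30, Ro60 and the others outside this rule were chosen after their values were seen. Library pairs within groups differed by chi-square values of 9.03 to 80.4 per degree of freedom (32 pairs), so none was a repeat of another. Each p-value measures the spread between single mice. The paper states that cages were formed by sex and dose, and the labels do not give the cage. Differences between cages cannot be told apart from those between doses or between sexes here. The reads carry no molecular identifiers.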

Additional observations from a re-analysis of the deposited data

Results flagged for a closer look

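Single mice stood apart in 5 of 44 sets of values of one group, and chance alone would give about 1 in 20. G66 had 511.6 CPM of Rmrp, the lowest of the 250 mg/kg mice, and 2.07 Rmrp counts per 100 Rn7sk counts, also the lowest there. G45 had 3.346 CPM of Vaultrc5, the highest at 125 mg/kg. G34 had 2.96 Rmrp counts per 100 Rn7sk counts, the highest at 125 mg/kg, and G9 had 2.11, the lowest of the vehicle mice.

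In 9 of 21 comparisons with vehicle mice of the same sex, all treated males lay on one side of the mean of the vehicle males and all treated females on the other side of the mean of the vehicle females. Single treated and vehicle mice of a sex could still overlap. At 125 mg/kg the males were above the mean of their sex and the females below theirs, with group means at 1.33 and 0.845 times the vehicle mean for Rmrp, 1.67 and 0.703 times for Rpph1, 2.71 and 0.536 times for Rny1, and 2.9 and 0.704 times for Rny3. At 500 mg/kg the same order held at 1.1 and 0.677 times for Rpph1, 1.44 and 0.49 times for Rny1, and 1.49 and 0.624 times for Rny3. For Vaultrc5 the values were 7.42 and 0.508 times at 125 mg/kg and 2.48 and 0.68 times at 500 mg/kg, where the vehicle males rest on 1 and 4 counts. These opposite directions at single doses were not tested, and each rests on the 2 vehicle males, G1 and G5, both low for most of these RNAs. Nor can these directions be told apart from differences between cages, which were formed by sex and dose. The slopes on dose of the sexes were tested against each other, with no member called.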

How the results depend on the processing

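The Rmrp slope kept its sign under all 13 alternatives (-1.23 to -0.73) and in all 18 fits without one mouse (-0.97 to -0.81), but its call did not hold in all of them. The call ended, so that 0 members were called, with no filter on low counts (slope -0.88), dose as rank (-0.83), no 500 mg/kg group (-0.73), no vehicle group (-1.08), males alone (-0.83), females alone (-0.92) and without G4 and G9 (-0.85, chosen after the data were seen). Without single mice the members called were 0 to 1, and the call ended without G5, G15, G25, G34, G40, G71, G4, G79, G87 or G90. The Terc slope was -0.51 without the 500 mg/kg group and -0.05 in females alone, and that of Vaultrc5 was 0.73 without the 500 mg/kg group. DESeq2, and edgeR without G1, called 1 member (a description, since these mice chose Rmrp) in the test of any difference among the 4 groups and 1 at 500 mg/kg against vehicle (0 to 1 over single mice left out for both). DESeq2 called 1 gene of the protein lists (0 to 1 over single mice left out) and 1 other structural RNA. For the DESeq2 fits and the fit without G1, the share of all genes called is not given here. These counts thus stand without a background. With at least 10 counts in every library only 8 other structural RNAs were tested, and all 8 had negative slopes. The cause of these changes was not tested, except that smaller sets of mice or genes enter where groups or low genes are dropped. No member was called on sex, on a departure from the dose line or on sex by dose under any alternative run. The 6 numbers that open the mouse titles, whose meaning the labels do not give, recur across dose groups for 2 of them. The 7 such pairs did not deviate together (r = -0.48 to 0.23, median 0, over 0.1 in 2), so they were not treated as pairs. This check used only mice of different dose groups and cannot show whether mice of the same group and number deviate together. The remaining numbers each lie within a single dose group. With this number as a replicate block (added after the data were seen) no gene and 0 members were called on dose, the Rmrp slope was -1.23 and that of Rny3 was 0.2, the opposite sign. Tests with dose group terms could not be fitted with it, since the 250 mg/kg mice hold a number of their own, and sex by dose was not run with it. Counts of 1 to 35 for Terc and Vaultrc5 limit their values to large differences.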
